A study of Homo sapiens with 2 samples.

Results

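Among the interactions of TCF3::HLF mapped by HiChIP in HAL-01 cells, those that join a pair of hub anchors were selected on the deposited list itself. A hub bin was a 5-kb bin that took part in 5 or more listed interactions, and a hub-hub interaction was one in which both bins were hub bins. By this rule 732 of 49245 interactions (1.49%) were chosen. A further 36779 interactions had 1 hub bin and 11734 had none. The number of interactions per bin chose the members, so contact counts, P values and numbers of partners are given as descriptions with no test.

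HAL-01 is a B cell acute lymphoblastic leukemia line with the t(17;19) translocation. The cells stably expressed Cas9GFP, and their wild-type TCF3 allele was knocked out with a single guide RNA and expanded from a colony, so that the line stands for 1 clone and the E2A (TCF3) antibody could reach the fusion protein without the wild-type protein. There was 1 condition with 2 biological replicates, and no parental line, control antibody or fusion knockout was among the samples used here. The replicates were merged before interactions were called, so the list holds 1 value per interaction and no replicate error.

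HiChIP joins chromatin immunoprecipitation to proximity ligation, so that a read pair records a contact between a pair of DNA segments in chromatin bound by the protein. TCF3::HLF carries the transactivation domains of TCF3 and the basic leucine zipper of HLF, a PAR bZIP protein that binds DNA as a dimer at a palindromic site. In chromatin contact maps, anchors that meet many others are called hubs, and enhancers and promoters of blood cell genes are often found among them.

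The HLF motif was searched as TTACGTAA or TTATGTAA on both strands, and its presence did not enter the rule that chose the members. The list itself was called with peaks of the same HiChIP as reference, and the paper reports those peaks as enriched in the HLF motif. Bins at peaks were not told apart from other bins. How much of the motif shares below comes from bins at peaks was not tested. Sequences are shown for the hub bins that carried the largest contact counts or the most hub partners, because they let the motif be seen in its context. Each is the plus strand of hg38 with 46 bases on either side of the motif, except for the guide, and capitals mark the motif, where TTACATAA is TTATGTAA of the opposite strand. The guide E.1, designed by the study against the MEF2C enhancer, is printed as its own sequence on the minus strand, so that its TTATGTAA lies on the plus strand.
MEF2C guide E.1, minus strand, chr5:88825103-88825122: tagcaTTACATAAtacatgt
MEF2C intron, chr5:88884918-88885017: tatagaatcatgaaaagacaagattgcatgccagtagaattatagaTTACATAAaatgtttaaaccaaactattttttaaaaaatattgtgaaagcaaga
downstream of SV2B, chr15:91412323-91412422: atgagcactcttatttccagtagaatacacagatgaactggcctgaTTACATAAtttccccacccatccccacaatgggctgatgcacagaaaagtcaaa
between genes near CXCR4, chr2:136207763-136207862: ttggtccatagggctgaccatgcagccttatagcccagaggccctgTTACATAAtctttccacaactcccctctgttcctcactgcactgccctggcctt
PHACTR2 intron, chr6:143577417-143577516: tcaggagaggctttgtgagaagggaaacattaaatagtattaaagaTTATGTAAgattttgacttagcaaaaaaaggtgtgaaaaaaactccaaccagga
ARMC9 intron, chr2:231241894-231241993: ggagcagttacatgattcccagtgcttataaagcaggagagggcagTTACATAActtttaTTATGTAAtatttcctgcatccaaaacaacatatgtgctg
between genes near MRPS23, chr17:57852588-57852687: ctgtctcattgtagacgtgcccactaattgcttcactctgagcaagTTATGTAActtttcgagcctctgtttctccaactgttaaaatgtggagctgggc
partner bin at SRSF1, chr17:58000772-58000871: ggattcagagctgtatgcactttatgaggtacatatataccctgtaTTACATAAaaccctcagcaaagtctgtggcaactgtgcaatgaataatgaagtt
LRRC8C intron, chr1:89635904-89636003: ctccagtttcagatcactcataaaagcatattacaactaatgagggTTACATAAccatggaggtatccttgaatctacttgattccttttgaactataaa
upstream of NR3C1, chr5:143436072-143436171: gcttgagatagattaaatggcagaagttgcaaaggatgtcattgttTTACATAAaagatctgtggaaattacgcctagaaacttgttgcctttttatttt
distal bin of the NR3C1 network, chr5:145207263-145207362: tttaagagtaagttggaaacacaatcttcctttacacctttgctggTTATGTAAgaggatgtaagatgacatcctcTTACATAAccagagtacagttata
between genes near TNS3, chr7:47153281-47153380: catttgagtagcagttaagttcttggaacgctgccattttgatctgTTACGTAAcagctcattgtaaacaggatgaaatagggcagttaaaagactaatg
between genes near TRIM2, chr4:153138932-153139031: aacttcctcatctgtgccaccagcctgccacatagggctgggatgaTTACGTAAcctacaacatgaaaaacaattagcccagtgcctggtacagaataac
The ARMC9 window held 2 motifs in opposite orientation 6 bases apart, and so did the window of the distal NR3C1 bin, 22 bases apart. In the MRPS23 window the motif was preceded by G and followed by C, the arrangement taken up below. The bins near TNS3 and TRIM2 carried the form TTACGTAA, the rarer one.

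The largest contact count of a hub-hub interaction was at MEF2C, which encodes a MADS-box transcription factor of muscle, myeloid and lymphoid cells. The bins at chr5:88820001-88825000 and chr5:88880001-88885000, 60 kb apart and both within the gene and at annotated transcript starts of it, were joined by 322 contacts (exact Poisson 95% interval, 287.8 to 359.2). This was 11.9 times the median of interactions at the same distance and ranked 3 among all interactions of the list. The sumCC, which adds the contact counts of neighboring significant bin pairs merged with it, was 1154. The bins took part in 10 and 13 interactions, and for both this was the single link with another hub bin. The second bin held an HLF motif and the first did not. The motif that guide E.1 targets lay 110 bases past the edge of the first bin, in an intron of MEF2C. The bin that holds it took part in 16 interactions but in no hub-hub interaction, and it belonged to the merged range of 5 bins on that side.

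The next 3 interactions had a contact count of at least 260, each more than 10 times the median at its distance. Near SV2B, which encodes a synaptic vesicle protein, bins at chr15:91345001-91350000 and chr15:91410001-91415000 were joined by 290 contacts (257.6 to 325.4) and took part in 14 and 23 interactions. Near CXCR4, the receptor for the chemokine CXCL12, bins at chr2:136135001-136140000 and chr2:136205001-136210000 were joined by 284 contacts (251.9 to 319.0), and their nearest coding start, that of CXCR4, was 15.8 and 85.8 kb away. In both pairs the HLF motif lay in the second bin and was missing from the first. On chromosome 6 an intronic bin of PHACTR2, a regulator of phosphatase and actin, was joined over 435 kb with a bin in PLAGL1, an imprinted zinc finger gene, by 260 contacts (229.4 to 293.6). The PHACTR2 bin took part in 49 interactions and held 2 HLF motifs, and the PLAGL1 bin took part in 16 and held none. Of these 4 pairs, that of PHACTR2 and PLAGL1 was the only one more than 100 kb apart.

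The following 6 interactions had contact counts between 128 and 165. A bin in ARMC9, which encodes a protein of the cilium, was joined with a bin 0.71 kb from a start of B3GNT7, a glycosyltransferase gene, by 165 contacts (140.8 to 192.2), and the merged group reached a sumCC of 1646, the highest of the members. A bin at a start of MRPS23, a mitochondrial ribosome gene, was joined with a bin in SRSF1, which encodes a splicing factor, by 141 contacts, and it was the only pair among these 10 with an HLF motif in both bins, 2 in each. A bin 1.86 kb from a start of AFAP1L1, an actin-associated protein, met one near IL17B with 138 contacts. The pairs at NUDT7, a peroxisomal coenzyme A hydrolase, and near STT3B, a catalytic subunit of oligosaccharyltransferase, had 130 and 129 contacts and no HLF motif in either bin. Within LRRC8C, a subunit of volume-regulated anion channels, 128 contacts joined a bin with 3 HLF motifs to one with none at an annotated start.

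The median contact count was 27 (95% interval from order statistics, 26 to 28) in hub-hub interactions, against 24 with 1 hub bin and 22 (22 to 23) with none, and the members ranged from 12 to 322. Of the members, 13.4% (98; Wilson 95% interval, 11.1 to 16.1%) had a contact count of at least 50, against 3.18% of the interactions with 1 hub bin and 1.07% of those with none. The classes differed more in the upper end of the distribution than in its middle. The highest contact count of the list, 615, was not among the members and belonged to an interaction with no hub bin. The members held 24979 of 1268490 contacts (1.97%). Single bin pairs, in which no neighboring pair was merged, made up 72.4% of the members (69.1 to 75.5%) and 91.5% and 96.1% of the other classes.

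Hub-hub interactions spanned shorter distances. Their median distance was 205 kb (185 to 225), against 260 kb (255 to 265) with 1 hub bin and 240 kb (230 to 245) with none, and 8.2% of them (6.42 to 10.4%) spanned more than 1 Mb, against 13.6% and 14.2%. Contact counts fall with distance, so the classes were also set side by side within bands. From 50 to 100 kb the median contact count was 35 in the 167 hub-hub interactions, 27 with 1 hub bin and 24 with none. From 200 to 500 kb it was 26, 24 and 22, and from 500 kb to 1 Mb it was 23, 23 and 21. Beyond 1 Mb it was 22.5, 22 and 20. The gap between hub-hub interactions and those with 1 hub bin was widest at the shortest distances.

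**Figure D1:**
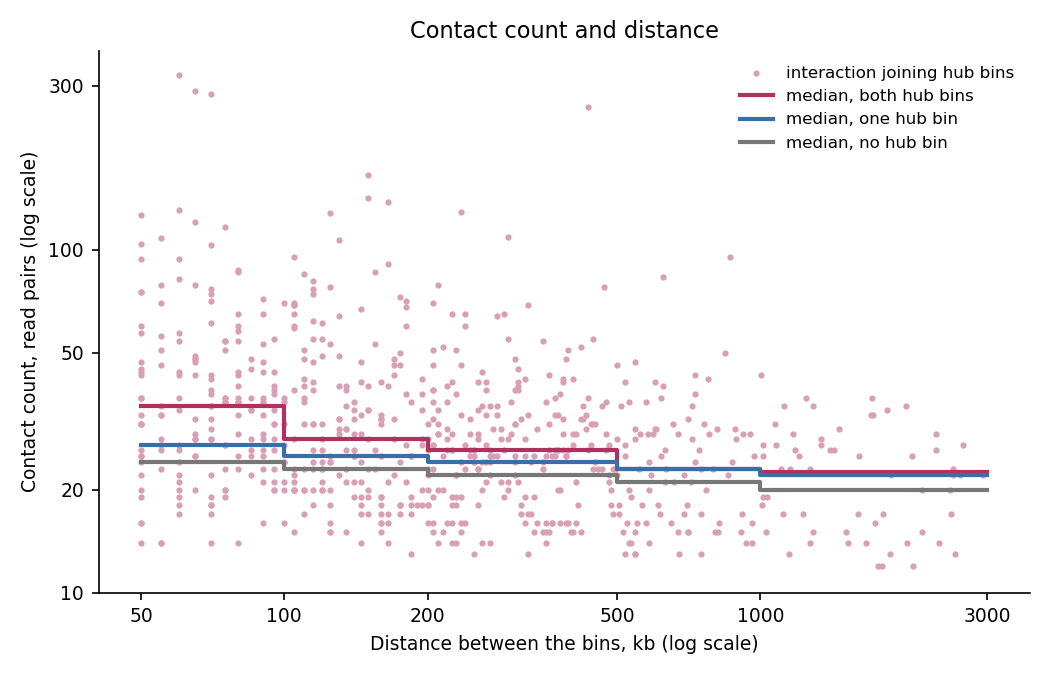
Each point is a hub-hub interaction, with the distance between its bins (kb, log scale) against its contact count (read pairs, log scale), and the lines are the median contact counts of the 3 classes in 5 distance bands. The line of the hub-hub interactions lies at 35 contacts below 100 kb, above the 27 and 24 of the other classes, and meets that of interactions with 1 hub bin at 23 from 500 kb to 1 Mb.

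At the threshold, the 191 members whose less used bin had 5 interactions had a median contact count of 25, a median distance of 195 kb and an HLF motif in both bins in 17.8% (13.0 to 23.8%). The 225 interactions just outside, with 4 interactions in the less used bin and 5 or more in the other, had 25 contacts, 215 kb and 21.3% (16.5 to 27.1%). The values on either side of the threshold were close, and the intervals of the motif share overlapped. A coding start lay in at least 1 bin of 24.6% (19.0 to 31.2%) inside and 35.6% (29.6 to 42.0%) outside.

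The HLF motif stood in both bins of 215 hub-hub interactions (29.4%; 26.2 to 32.8%), against 17.4% (17.0 to 17.8%) of those with 1 hub bin and 11.6% (11.0 to 12.2%) of those with none. It stood in neither bin of 18.3%, against 29.9% and 44.5%. The share was higher in every distance band, with 32.9% against 16.8% and 10.9% from 50 to 100 kb and 26.7% against 19.3% and 12.1% beyond 1 Mb, where the interval of the 60 members (17.1 to 39.0%) held the value of interactions with 1 hub bin. A control with the same letters in another order, TTAGCTAA or TTAGTTAA, stood in both bins of 6.01% (4.51 to 7.97%) of the members, 5.56% with 1 hub bin and 5.46% with none. These intervals cover interactions as if they were independent, although interactions that share a bin are not.

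Among the members the share was higher where the bins were used more. With 10 or more interactions in both bins it was 45.1% (37.1 to 53.3%) of 142, with 10 or more in 1 bin it was 30.3% (25.7 to 35.4%) of 346, and with 5 to 9 in both it was 18.9% (14.4 to 24.2%) of 244. The median contact count in the same order was 29.5, 28 and 24. The first and last of these groups did not overlap in their intervals for the motif, which again treat interactions that share a bin as independent.

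**Figure D2:**
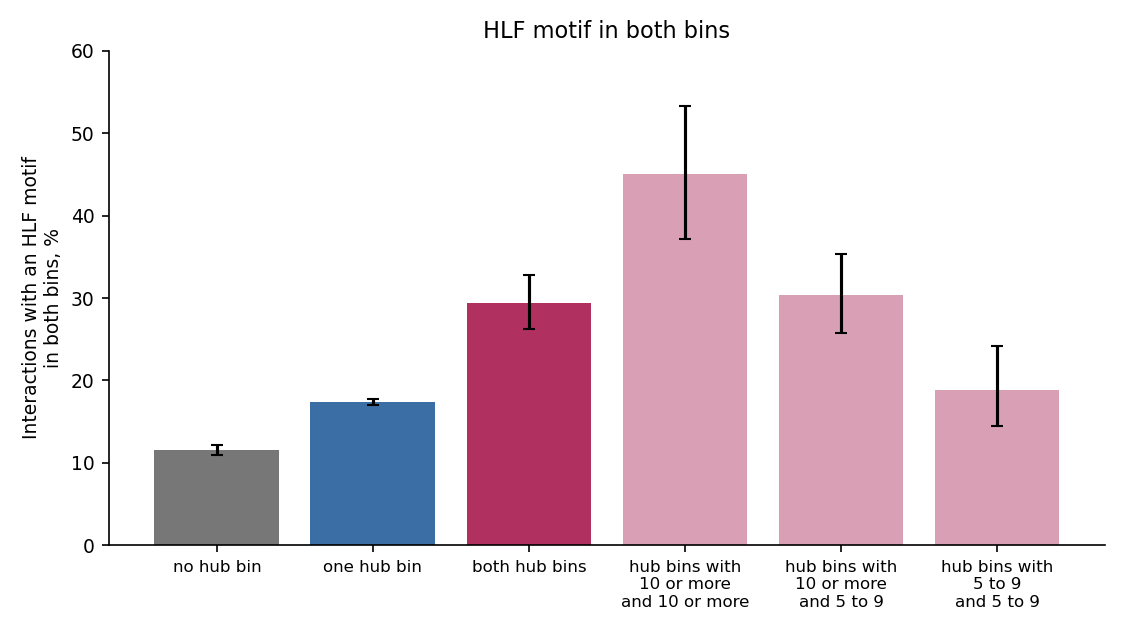
Bars give the percentage of interactions with an HLF motif in both bins and error bars the Wilson 95% interval, for the classes of all interactions and, in the lighter bars, for hub-hub interactions split by the number of interactions of their bins. The bar of the hub-hub interactions is at 29.4%, and among them it falls from 45.1% to 18.9% with less use of the bins.

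Motifs in the partner bins were then compared. Where the more used bin of a hub-hub interaction held the motif, the less used bin held it in 46.0% (41.6 to 50.6%) of 467, and where the more used bin lacked it, in 49.4% (43.5 to 55.4%) of 265, so the intervals overlapped. Joined hub bins held it in 54.2% (51.4 to 57.1%) of 1200, and hub bins with no hub partner in 53.7% (52.0 to 55.4%) of 3402, again with overlapping intervals. In flanking bins 25 kb from the joined hub bins the share was 27.9% (25.8 to 30.1%), and in anchor bins that were not hub bins it was 29.4% (29.0 to 29.8%). Within 5 or 6 interactions per bin, 41.8% (36.8 to 47.0%) of joined and 47.4% (45.0 to 49.8%) of other hub bins held the motif. With 15 or more, 72.0% and 76.3% did. Contact counts of hub-hub interactions differed little with the motif, with medians of 28 (26 to 31) for a motif in both bins, 26 (26 to 28) in 1 bin and 26 (24 to 29) in neither.

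The bases next to the motif differed between hub bins and their flanks. Read along the motif, 47.3% (44.1 to 50.5%) of 907 matches in joined hub bins were preceded by A or G and followed by C or T, as in the windows near MRPS23 and TRIM2 shown above. In flanking bins 25 kb away it was 19.2% (16.2 to 22.6%) of 583 matches, and in anchor bins that were not hub bins 23.7%. At least 1 such longer match stood in 30.8% (28.2 to 33.4%) of the joined hub bins and in 6.26% (5.20 to 7.52%) of their flanks, while the anchors that were not hub bins had 8.14% and their flanks 7.71%. Hub bins with no hub partner had 30.2% (28.7 to 31.8%), a value within the interval of the joined ones. Both bins held the longer match in 67 hub-hub interactions (9.15%; 7.27 to 11.5%), against 2.48% with 1 hub bin and 1.37% with none. The bases beside the motif were looked at after the motif counts had been seen.

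Of 4602 hub bins, 1200 (26.1%) were joined with another hub bin. They formed 483 networks, of which 357 were a single pair, 83 had 3 bins, 21 had 4 and 22 had 5 or more. Of the joined bins 988 had 1 hub partner and 40 had 3 or more. The interactions of hub bins led mostly elsewhere, since 1464 of the 38243 interaction ends at hub bins (3.83%) belonged to hub-hub interactions. Triangles, in which 3 hub bins were all joined with each other, numbered 11, and 9.97% of the 331 triplets around a shared bin were closed. At CXCR4 both bins were joined with chr2:136375001-136380000 by 43 and 60 contacts, and at NUDT7 both bins were joined with chr16:77970001-77975000 by 46 and 109.

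The largest network ran over 2515 kb of chromosome 5 and joined 21 hub bins by 22 interactions of 16 to 45 contacts. It covered ARHGAP26, NR3C1, the glucocorticoid receptor through which steroids act on lymphoid cells, HMHB1, a minor histocompatibility antigen gene, and KCTD16, an auxiliary subunit of GABA-B receptors. The HLF motif lay in 13 of the 21 bins. The bin with a start of NR3C1, chr5:143435001-143440000, took part in 29 interactions and had 4 hub partners. It met a bin in ARHGAP26 over 600 kb with 30 contacts, and bins at HMHB1 with 41 and 26 contacts and in KCTD16 with 23. The bin chr5:142925001-142930000 in ARHGAP26 had 5 interactions, all of them with other hub bins, and no HLF motif, and its contact counts lay between 22 and 40. The bin chr5:145205001-145210000, 544.4 kb from the nearest coding start, that of PRELID2, took part in 30 interactions and had 4 hub partners at distances from 85 to 1605 kb. No contact count of the network came near those of the top pairs, and its median was 26.

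**Figure D3:**
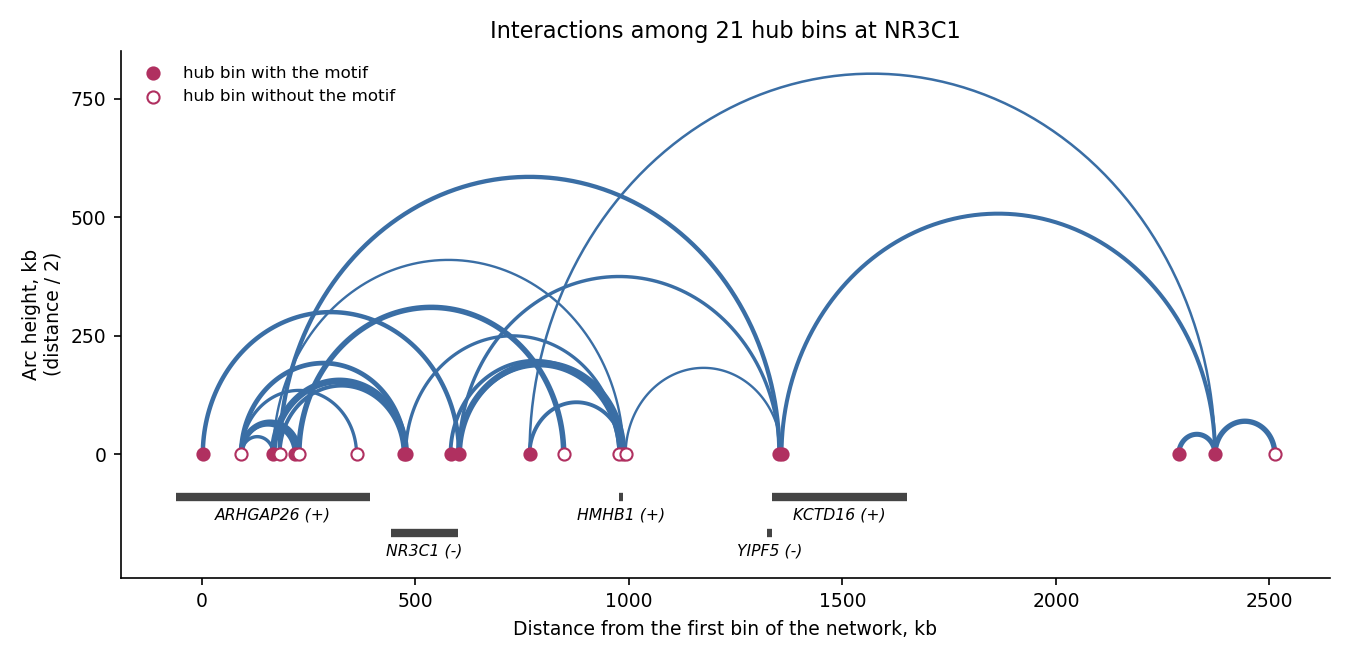
Arcs are the 22 interactions among the 21 hub bins of the largest network, drawn by distance from its first bin (kb), with line width in proportion to the contact count and height equal to the distance divided by 2, and bars below are coding genes with their strand. Filled circles, 13 of the 21, are bins with an HLF motif, and the arcs from the NR3C1 start at 600 kb reach ARHGAP26, HMHB1 and KCTD16.

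The networks next in size had 10 and 9 bins. At SLMAP, a gene for a membrane-associated protein, 10 hub bins were joined by 10 interactions over 970 kb, from DNAH12, a dynein heavy chain gene, to PXK, and the bin with an SLMAP start at chr3:57825001-57830000 had 4 hub partners among its 5 interactions, with 21 to 77 contacts. The PHACTR2 network had 10 bins and 9 interactions over 1400 kb, with 20 to 260 contacts, and reached HIVEP2, a zinc finger gene, LTV1, a ribosome assembly gene, and UTRN, the gene of utrophin. The PHACTR2 bin met HIVEP2 with 23 and UTRN with 31 contacts, far below the 260 with PLAGL1. Between GADL1 and STT3B, 9 bins were joined by 9 interactions, and the bin chr3:31070001-31075000, which lies 175.3 kb from a coding start, had 5 hub partners with 17 to 29 contacts. A further 9 bins at chr7:46310001-47155000 overlapped no coding gene, and 6 of them held an HLF motif. Their bin at chr7:47150001-47155000 took part in 31 interactions and had 4 hub partners, with 26 to 77 contacts. A network of 9 bins on the X chromosome overlapped KLHL13 and DOCK11, and its bin at chrX:118125001-118130000 had 4 hub partners with 27 to 120 contacts.

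The ARMC9 bin stood at the centre of its network, because all 5 of its interactions ran through it. With 3 HLF motifs and 32 interactions, it was joined with hub bins at B3GNT7 (165 contacts), in ARMC9 itself (108), in PSMD1, a proteasome subunit gene (69), near NMUR1 (39) and, 1290 kb away, in CHRND (35). Near TRIM2 the bin chr4:153135001-153140000 had 4 hub partners at 410 to 2185 kb with 15 to 41 contacts.

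Pairs of hub bins 50 kb to 3 Mb apart were joined in 2.52% of cases, 732 against 28344 not joined, and the share fell from 17.5% at 50 to 100 kb to 11.1%, 5.54%, 1.76% and 0.351% in the wider bands. A listed partner within 1 bin was shared by 388 of the members (53.0%; 49.4 to 56.6%). From 500 kb to 1 Mb it was 44.6% (34.8 to 54.7%) of joined against 23.2% (22.1 to 24.4%) of other pairs, and from 50 to 100 kb it was 62.3% (54.7 to 69.3%) against 53.4% (49.9 to 56.8%). Beyond 1 Mb it was 11.7% (5.77 to 22.2%) against 7.05% (6.67 to 7.44%). In the shortest and the longest band the intervals overlapped. Partners are counted from the same interactions that chose the members, so these shares are descriptions only. Joined pairs also had more interactions, with a median of 19 for both bins together against 15, and the part of this in the shared partners was not tested.

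**Figure D4:**
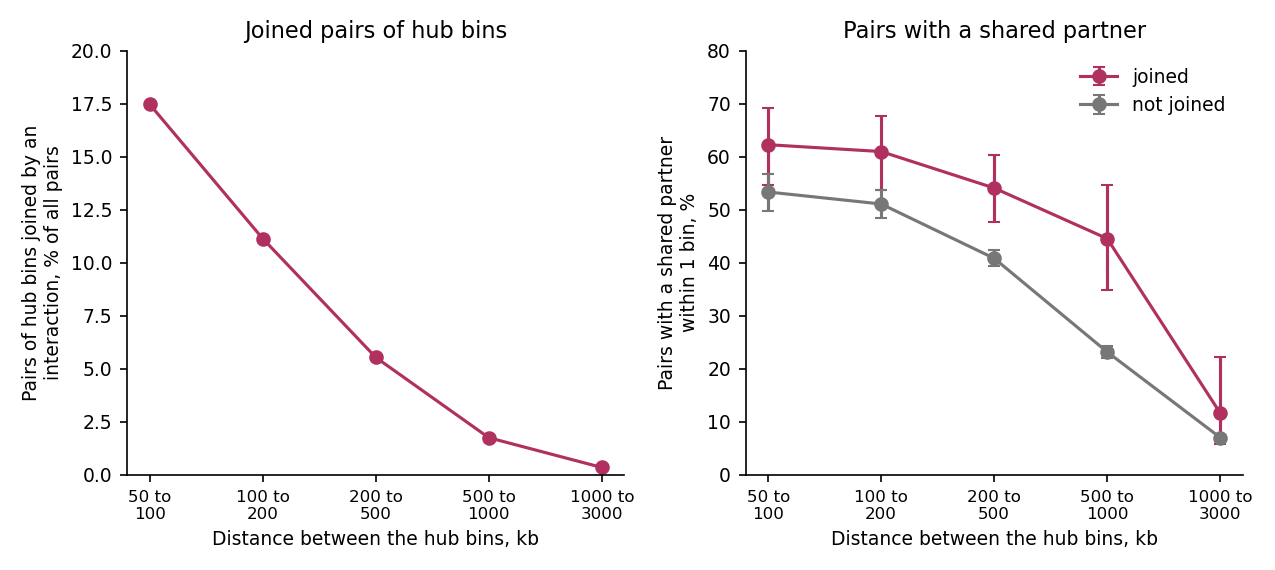
The left panel gives the percentage of pairs of hub bins that an interaction joins, by the distance between them (kb), and the right panel the percentage of joined and not joined pairs with a shared partner within 1 bin, with Wilson 95% intervals. Joining falls from 17.5% to 0.351% with distance, and the gap in shared partners is widest from 500 kb to 1 Mb, at 44.6% against 23.2%.

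As in the other classes, hub-hub interactions lay within genes more often than at their starts. Of their 1464 ends, 48.8% (715) were inside a coding gene away from a start, 22.8% between genes, 15.3% in other genes only and 13.0% (191) at a coding start. With 1 hub bin, 45.9% of the ends were inside a coding gene away from a start and 12.9% at a coding start. With no hub bin these shares were 43.5% and 14.2%. Both bins overlapped the same coding gene in 123 members (16.8%; 14.3 to 19.7%), against 13.7% with 1 hub bin and 10.7% with none. A coding start stood in at least 1 bin of 23.0% (20.1 to 26.1%), against 23.6% and 25.4%. Against 2.3% of the interactions with 1 hub bin and 3.02% of those with none, both bins held one in 23 members (3.14%; 2.10 to 4.67%). Besides MEF2C, these joined starts of SLMAP (77 contacts), of DNAJC3 with UGGT2, which both serve protein folding in the endoplasmic reticulum (68), of BCOR, a corepressor of BCL6 (57), and of NR3C1 with HMHB1 (26). Of these, DNAJC3, UGGT2 and BCOR were named after their values were seen. Between the bins of 168 members (23.0%) no coding gene started, and 238 (32.5%) had no other hub bin between them. These shares were not taken for the other classes.

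Of all 19962 coding genes, 477 (2.39%) had a start within 10 kb of a bin of a hub-hub interaction, and 10996 (55.1%) one within 10 kb of any anchor bin. Among genes of stem and progenitor cells 3 of 29 did (10.3%; 3.58 to 26.4%), namely MEF2C, MYB and ETV6. Near any anchor bin were 62.1% of this list, 75.9% of the B-lineage genes and 60% of the cell cycle and survival genes taken below. For the adhesion and neuronal genes it was 68%, and for the cytokine and signaling genes 90.5%. Each of these shares lies above the 55.1% of all coding genes. How far this accounts for list shares above 2.39% was not tested. Of the list genes near a member, the paper names MEF2C, SOX4, FOXP1, CLSTN2 and B3GNT7 as enhancer-promoter genes of the same HiChIP. The shares of the lists that hold them are therefore not independent of these data. For MYB, a transcription factor of early blood cells, the contact count was 16 (9.15 to 26.0), between a bin in HBS1L and one in MYB 165 kb away, both with HLF motifs. For ETV6, a repressor of the ETS family, it was 21 between a pair of bins in the gene. Both were below the median at their distance, at 0.667 and 0.808 times, whereas MEF2C was at 11.9 times.

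Of B-lineage genes 3 of 29 (10.3%) were near such a bin. IKZF1, the gene of Ikaros, had 27 contacts with a bin in DDC, FOXP1, a forkhead factor of B cell development, had 29 over 950 kb, and SOX4, an HMG box factor of B cell progenitors, had 21 over 715 kb with a bin in CDKAL1. Contact counts were 0.954 to 1.32 times the median at the same distance. Of cell cycle and survival genes 1 of 20 was, CDK6, a kinase that drives entry into the cell cycle, with 95 contacts (76.9 to 116.1) between a pair of bins 105 kb apart in the gene that held 2 and 3 HLF motifs. The other CDK6 pair, 50 kb apart and with a CDK6 start in 1 bin, had 60 contacts (45.8 to 77.2) and no HLF motif in either bin. No start of MYC lay within 10 kb of a bin of a hub-hub interaction. Contacts farther from its start are outside this count. Chromosome 8, which holds MYC, had hub-hub interactions over chr8:127180001-129705000 (17 contacts) and chr8:128880001-129585000 (18 contacts). Their relation to MYC was not tested.

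Of adhesion and neuronal genes 3 of 25 (12.0%; 4.17 to 30.0%) were near such a bin: B3GNT7, CLSTN2, a calsyntenin of synapses, with 43 contacts over 360 kb, and SLIT2, a ligand of ROBO receptors, with 20. Of these, B3GNT7 and CLSTN2 had been singled out by the paper from the same HiChIP. Of cytokine and signaling genes 2 of 21 were, S100A9, a calcium-binding protein of myeloid cells, with up to 40 contacts in 4 interactions, and IL2RA, a subunit of the interleukin receptor of T cells, with 16. None of the 22 chromatin regulators, the 9 PAR bZIP and C/EBP genes or the 20 genes of liver and muscle were, although 81.8%, 44.4% and 40.0% of them were near some anchor bin. The upper limits of these 3 shares, 14.9%, 29.9% and 16.1%, lie above the 2.39% of all coding genes, so at these list sizes an absence was not distinguishable from the background.

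Reads were not deduplicated, so copies of a read pair may be counted more than once. The intervals of contact counts treat read pairs as independent, and on that basis cover counting error only. No member joined bins with near-identical sequence: at most 215 of their 31-mers were shared, and 560 members shared none.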

How the data were processed

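HiChIP libraries of TCF3-KO HAL-01 cells (1 group, 2 biological replicates) were analysed from the interaction list that the authors deposited. According to the methods, the authors trimmed reads with Trim Galore 0.6.6, merged the replicates, aligned with BWA-MEM to hg38, extracted pairs with pairtools, left out its dedup step, called MACS2 peaks as reference and ran FitHiChIP with 5-kb bins from 50 kb to 3 Mb. The q-value under 0.01 and the merging of nearby contacts are taken from the name of the deposited list. Trim Galore, BWA, MACS2 and the build also stand in the submitters' processing notes. The version of FitHiChIP is not given in the sources used here. The deposited contact counts and the sumCC are counts of read pairs without normalization, pooled over the replicates. The deposited p-value and q-value come from the distance and bias model of FitHiChIP. The list also has a deposited fraction, the part of a merged group's bin pairs that were significant, which entered no result. Every bin lay within its hg38 chromosome, and replicates could not be compared because the list pools them.

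Interactions were counted per bin, and those with 5 or more in both bins were kept. The rule, gene lists and comparisons were chosen with earlier results of these data known. The list held no depth per sample. The contact counts of the listed interactions sum to 1268490, which is not the sequencing depth. The median at the same distance was taken over interactions within 5% of the distance. Networks were connected components of hub bins (networkx 3.6.1). Motifs were exact matches in hg38 on both strands, flanks lay 25 kb away and were not anchors, and genes were from GENCODE release 44. Shares have Wilson 95% intervals, contact counts exact Poisson 95% intervals and medians order-statistic intervals. No test was run, since the members were chosen on the readout and there is 1 merged library. Scripts were tested on simulated data.

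Named are the 10 hub-hub interactions with the largest contact count, the 10 hub bins with the most hub partners, the 5 largest networks with any of equal size, and list genes within 10 kb of a member. Other names were chosen after their values were seen, as were those of the ARMC9 network beyond B3GNT7. Alternatives were other minimums of interactions per bin, q-value, contact count and distance, omission of chromosomes 17 and 19 or of near-identical bins (500 or more shared 31-mers), joined neighboring bins, other motif forms, wider gene starts and the sumCC. Software was matplotlib 3.10.9, scipy 1.17.1, pyfaidx 0.9.0.4, pandas 2.3.3 and numpy 2.4.6 under Python 3.11.15.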

Additional observations from a re-analysis of the deposited data

How the results depend on the processing

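Of 51 alternative values, 28 stayed within the limits set for them (a count within 1.5 times, a share or median within its 95% interval), and 23 moved. A minimum of 10 interactions per bin gave 142 interactions, a median contact count of 29.5, a median distance of 232.5 kb, the HLF motif in both bins in 45.1%, 91 networks and 18.3% with a coding start. For the alternatives of q-value, contact count and distance, the whole list was filtered first and interactions per bin were counted again. With a q-value under 1e-05, which 535 of the 732 members had, the recount gave 300 interactions and a median of 33 contacts. Of these 300, 36.3% had the motif in both bins and 20% a coding start, in 218 networks. With a contact count of at least 20 there were 351 interactions, a median of 32 contacts over 180 kb, 36.8% with the motif and 242 networks. Touching hub bins joined into regions raised closed triplets to 14.5%. The motif share was 0.683% with TTACGTAA alone and 24.7% with TTATGTAA alone. Chosen after seeing the data, it was 9.15% for the motif with A or G before and C or T after, and 59.7% with touching bins included, against 51.4% for interactions with 1 hub bin and 41.2% for none. Starts within 10 kb raised the share with a coding start to 57.4%, and the median sumCC was 29. In the other alternatives, among them a minimum of 4 interactions with 966 members, the values stayed. No value without a replicate could be computed because the list pools both. No paired analysis was possible because there is 1 merged list of 1 group. A contact count of 16 has an interval from 9.15 to 26.0, so differences of a few contacts between single interactions are not distinguishable at this depth.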

Other observations

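The other motifs searched are given for joined hub bins and for their flanks 25 kb away. AP-1 (TGAGTCA) stood in 54.4% (51.6 to 57.2%) of the joined hub bins and 55.0% of their flanks, the site of GATA factors, AGATAAG, in 53.5% and 51.8%, RUNX (TGTGGTTT) in 37.7% and 35.4%, and the E-box CACCTG in 97.2% and 96.5%. The other E-box, CAGCTG, stood in 83.8% and 82.8%. The rarer C/EBP (TTGCGCAA) and CRE (TGACGTCA) sites stood in 1% (0.573 to 1.74%) and 2% (1.35 to 2.96%) of the joined hub bins and in 0.532% (0.280 to 1.01%) and 1.36% (0.907 to 2.03%) of the flanks, with overlapping intervals. TTACGTAA was found in 7.42% (6.07 to 9.04%) against 1.65% (1.15 to 2.38%), and TTATGTAA in 49.7% against 26.5%. Hub bins with no hub partner were close to the joined ones, at 6.29% (5.52 to 7.16%) for TTACGTAA and 49.5% for TTATGTAA. The CTCF core motif was in 3.42% (2.53 to 4.60%) of joined hub bins and 1.65% (1.15 to 2.38%) of their flanks. Hub bins with no hub partner had 2.62% (2.13 to 3.21%) and their flanks 2.35%. Anchor bins that were not hub bins had 2.43%. The intervals of joined and other hub bins overlapped. The CTCF core motif stood in both bins of only 2 members, 1 with convergent and 1 with tandem matches, so orientation could not be compared.

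Hub-hub interactions were found on all chromosomes of the list, from 3 of 678 interactions on chromosome 19 (0.443%; 0.151 to 1.29%) to 77 of 3435 on chromosome 3 (2.24%; 1.80 to 2.79%), with chromosome 22 at the same share. Of the hub bins of chromosome 22, 41.4% were joined with another, against 10.6% of the 47 on chromosome 19.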
